A study of Homo sapiens with 6 samples.

Results

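The SLC25 family holds the carrier proteins that move metabolites across the inner mitochondrial membrane. Its members were taken by symbol, as every row of the deposited expression table whose name begins with SLC25A and a number. The rule found 54 of the table's 26228 rows: 48 genes for carriers, 4 for antisense RNAs and 2 pseudogenes. The RNA came from AsPC-1, a line of human pancreatic adenocarcinoma cells long kept in culture. Both groups were kept without serum for 24 h, 3 libraries with vehicle and 3 with DON, and the labels give no dose. DON (6-diazo-5-oxo-L-norleucine) is an analog of glutamine that blocks enzymes which use glutamine, and the comparison asks which transcripts differ when that use is blocked. Within each group the libraries are numbered 1 to 3, with no word on whether they came from separate cultures. The p-values therefore measure the spread between these libraries, which may be technical.

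Carriers of this family are built from repeats of pairs of membrane-spanning helices and usually exchange one solute for another. They are made in the cytosol and reach the inner membrane with the help of small chaperones between the mitochondrial membranes. Through them the mitochondrion takes up ADP, phosphate, amino acids and cofactors, and releases ATP, citrate and aspartate. Carriers were grouped here by the substrate that textbooks give them: amino acids, citrate and dicarboxylates, nucleotides, cofactors, phosphate and metals, glutathione and carnitine, uncoupling-like proteins, and members with no substrate assigned here.

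Levels are FPKM, read fragments on a gene divided by its transcript length and by the mapped fragments of the library, so levels of different genes can be compared per length. FPKM sums of the libraries ran from 525200 to 556950, absolute depth is unknown, and relative depth was lowest in vehicle 1 and 1.70 times that in vehicle 2. Along the second principal component (19.7% of the variance), vehicle 1, vehicle 2 and DON 1 parted from vehicle 3, DON 2 and DON 3, and the GC content of genes tilted with that split. It is not a batch that the labels name. Of the epithelial markers, KRT19, EPCAM, CDH1 and MUC1 together held 2787 to 3613 FPKM in vehicle and 2510 to 3459 in DON. Within this sum MUC1 was at 33.2 to 56.8 FPKM in vehicle and 18.6 to 20.2 in DON. CDH1 was higher in DON, at 34.8 to 36.8 FPKM against 29.2 to 32.4. KRT8 and KRT18 carried failure marks in vehicle 3, DON 2 and DON 3, which lie on the same side of the split. Endothelial, fibroblast, acinar and endocrine marker sums were at most 1.13 FPKM. In the leukocyte list of 4 genes the sum was 208 to 328 FPKM in vehicle and 75.8 to 112 in DON, nearly all of it LYZ, while CD3E was at the table's floor of 0.01 FPKM and PTPRC at most 0.258. The part of these differences in the results was not tested.

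SLC25 transcripts moved in both directions with DON. Those for carriers of citrate, dicarboxylates, aspartate, glutamate and branched-chain amino acids fell, those for the carrier of glycine and for 1 of 2 carriers each of coenzyme A and of iron rose, and the abundant ADP/ATP carriers did not pass the test. Of the 54 members, 37 reached 1 FPKM in at least 3 libraries and were tested, 36 of them carriers. With limma on log2(FPKM + 1) at a Benjamini-Hochberg adjusted p of 0.05 over all 11471 tested genes, 8 members rose, 9 fell and 20 did not pass. The same test called 18.3% of all tested genes higher and 20.6% lower, 38.9% in all, against 45.9% of the tested members. Groups did not overlap for 16 of the 17 called members and for 1 of the 20 that did not pass. Over all tested genes, called or not, the share was 51.5%. A call favours groups that do not overlap, so the share among called members cannot be set against this. Among the called members only SLC25A1 and SLC25A10 passed 2-fold on the fitted scale. The median log2 change was -0.02 over the members and -0.01 over all tested genes. The number that rose was 5 without vehicle 2 or without DON 2, and 12 of the 17 called members were called under every alternative setting in which they were tested. In these bulk cultures a change in transcript per cell and a change in the mix of cells cannot be told apart.

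**Figure D1:**
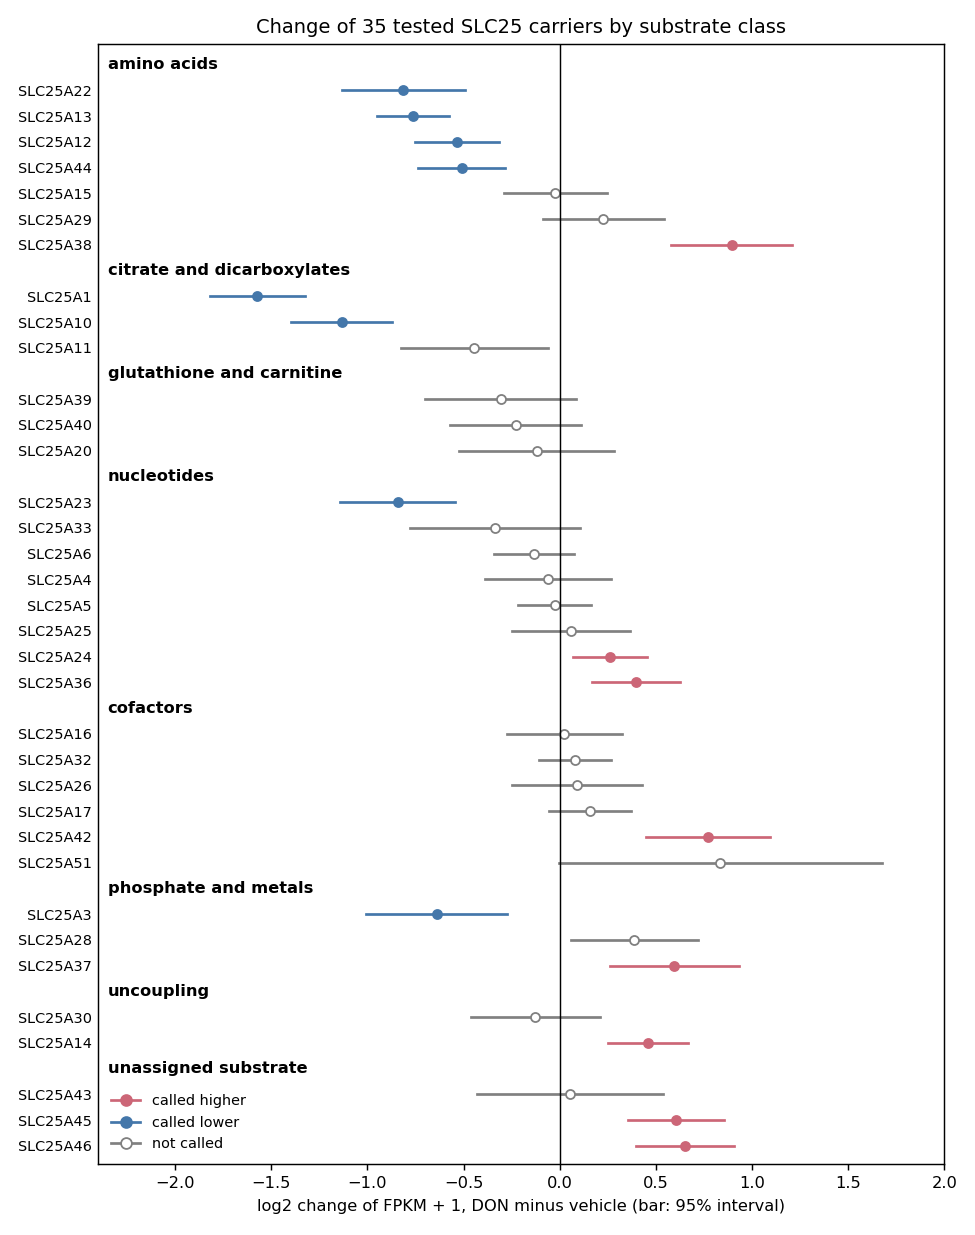
Log2 change of FPKM + 1 (DON minus vehicle) with its 95% interval for 35 tested carriers, grouped by substrate class. Filled points were called by limma and open points were not. The citrate and dicarboxylate carriers lie to the left of 0, with SLC25A1 at -1.57, and SLC25A38 is farthest to the right among the called carriers at 0.89.

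The family as a whole held a lower share of the FPKM sum in each DON library. Summed over all 54 members it was 2078, 2174 and 1994 FPKM in the vehicle libraries and 1823, 1760 and 1698 FPKM in the DON libraries. Every DON sum lay below every vehicle sum. As a share of the library's FPKM sum this was 0.381%, 0.397% and 0.377% against 0.327%, 0.322% and 0.323%. The phosphate carrier SLC25A3 and the ADP/ATP carriers SLC25A5 and SLC25A6 made up 68.9% to 70.4% of the family sum in each library. Without those 3 genes the sums were 633, 643 and 618 FPKM with vehicle and 555, 521 and 529 FPKM with DON, again without overlap. Among the genes left, the mean of SLC25A1 went from 109 to 36.2 FPKM and that of SLC25A13 from 67.4 to 39.3 FPKM. Such sums follow the most abundant genes and not the members at large, of which 8 rose and 9 fell, with a median log2 change of -0.02.

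The called rises of largest log2 change were SLC25A38, SLC25A42, SLC25A46 and SLC25A45, and the 250 bases before the gene start of the leading pair are shown. The sequences are from RefSeq (GRCh38.p14), plus strand, at chr3:39383120-39383369 for SLC25A38 and chr19:19063744-19063993 for SLC25A42. Capitals mark the letters CCACG, which form part of the endoplasmic reticulum stress element, and CCAAT, on either strand.
SLC25A38: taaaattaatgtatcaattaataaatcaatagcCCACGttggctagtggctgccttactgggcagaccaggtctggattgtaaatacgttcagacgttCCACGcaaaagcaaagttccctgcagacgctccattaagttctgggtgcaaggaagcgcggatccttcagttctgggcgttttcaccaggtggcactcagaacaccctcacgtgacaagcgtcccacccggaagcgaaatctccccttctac
SLC25A42: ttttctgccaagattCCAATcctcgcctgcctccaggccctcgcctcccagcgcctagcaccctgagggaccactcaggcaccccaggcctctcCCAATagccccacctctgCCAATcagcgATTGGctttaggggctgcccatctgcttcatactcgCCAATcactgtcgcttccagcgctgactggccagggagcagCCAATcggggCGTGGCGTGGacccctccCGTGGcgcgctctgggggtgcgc
The promoters of SLC25A46 and SLC25A45 held neither set of letters. RefSeq promoters were matched for 31 of the 36 tested carriers: 7 that rose, 8 that fell and 16 that did not pass. Of 27305 promoter windows of this length, 33.3% held CCACG and 33.0% held the CCAAT box. The former was in 3 of the 7 that rose, 7 of the 8 that fell and 11 of the 16 that did not pass, and the latter in 2, 5 and 7 of them. The letters TGATGNAAN, bound by ATF4 with C/EBP factors, were in 3.18% of all windows and, among the matched carriers, only in SLC25A11, which did not pass. TGACGTG, the core of the unfolded protein response element, was in 1.71% of all windows and in no matched carrier. The motif of NRF1 was in 5.53% of all windows and in the windows of SLC25A3, which fell, and SLC25A11. These matches describe letters in a window and show no binding.

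Among the amino acid carriers, 4 of 7 tested fell and 1 rose, with a median log2 change of -0.51. The aspartate-glutamate carrier SLC25A13 (citrin), which exports aspartate from the mitochondrion in exchange for glutamate, stood at 64.6, 68.4 and 69.1 FPKM with vehicle and 41.5, 37.6 and 38.8 FPKM with DON. All 3 DON libraries were far below all 3 vehicle libraries. Its mean went from 67.4 ± 2.42 to 39.3 ± 1.99 FPKM (SD, n = 3 per group), 1.71-fold lower (log2 fold change -0.76 ± 0.08 SE, limma adjusted p = 0.000570). Its paralog SLC25A12 (aralar) does the same exchange and was the minor form, at 5.13, 5.25 and 4.95 FPKM with vehicle and 3.02, 3.29 and 3.35 FPKM with DON. It fell 1.59-fold (log2 fold change -0.53 ± 0.09 SE, limma adjusted p = 0.00465), again with no overlap. The glutamate carrier SLC25A22 imports glutamate together with protons. It stood at 17.7, 18.6 and 13.7 FPKM with vehicle and 9.87, 9.14 and 8.05 FPKM with DON, and fell 1.85-fold (log2 fold change -0.81 ± 0.14 SE, limma adjusted p = 0.00393). SLC25A44, which brings branched-chain amino acids into mitochondria, was at 9.53, 9.80 and 11.2 FPKM with vehicle and 6.66, 6.76 and 7.13 FPKM with DON. It fell 1.49-fold (log2 fold change -0.51 ± 0.10 SE, limma adjusted p = 0.00624), and the groups did not overlap.

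The glycine carrier SLC25A38 went the other way. It supplies glycine for the opening step of heme synthesis, and its loss causes a sideroblastic anemia. Levels were 15.4, 16.1 and 12.6 FPKM with vehicle and 32.6, 26.7 and 25.3 FPKM with DON, so the lowest DON library was well above the highest vehicle library. The mean rose 1.92-fold, from 14.7 ± 1.87 to 28.2 ± 3.89 FPKM (limma adjusted p = 0.00254, log2 fold change 0.89 ± 0.13 SE), the largest log2 rise among the called members. By ratio of means SLC25A42 rose more, 1.97-fold. After GC correction its log2 change was 0.95, against 0.89 for SLC25A38. The ornithine carrier SLC25A15, which links the urea cycle's mitochondrial and cytosolic steps, was at 5.02 ± 0.366 and 4.94 ± 0.592 FPKM, with a 95% interval of the log2 change from -0.29 to 0.24. SLC25A29, a carrier of basic amino acids, was at 5.48 ± 0.891 FPKM with vehicle and 6.55 ± 0.615 FPKM with DON (limma adjusted p = 0.214). With a term for the library split its limma adjusted p was 0.0199, and after correction for GC content 0.0264, while leaving out 1 library gave 0.176 to 0.492, with a log2 change of 0.11 without vehicle 3 against 0.23.

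Of the 3 tested citrate and dicarboxylate carriers 2 fell, with the largest log2 falls among the called SLC25A genes. SLC25A1 exports citrate, the source of cytosolic acetyl-CoA for fatty acid and sterol synthesis. It stood at 110.4, 114 and 103 FPKM with vehicle and 40.9, 35.1 and 32.6 FPKM with DON, a wide gap between the groups. The mean fell 3.02-fold, from 109 ± 5.33 to 36.2 ± 4.23 FPKM (limma adjusted p = 0.000111, log2 fold change -1.57 ± 0.10 SE). SLC25A10 exchanges malate or succinate for phosphate. It was at 24.3, 21.5 and 18.8 FPKM with vehicle and 9.68, 8.92 and 9.06 FPKM with DON. All DON values were below all vehicle values, and the mean was 2.33-fold lower (log2 fold change -1.13 ± 0.11 SE, limma adjusted p = 0.000438). The oxoglutarate-malate carrier SLC25A11, the partner of SLC25A12 and SLC25A13 in the malate-aspartate shuttle, was at 25.2, 27.3 and 22.3 FPKM with vehicle and 22.3, 18.0 and 14.5 FPKM with DON. Its groups met at DON 1, and it did not pass (log2 fold change -0.44 ± 0.16 SE, limma adjusted p = 0.0660). Leaving out 1 library gave log2 changes from -0.59 without DON 1 to -0.29 without DON 3 and limma adjusted p from 0.0160 (without DON 1) to 0.180. A term for the split gave a log2 change of -0.33 (limma adjusted p = 0.0317) and GC correction -0.29 (limma adjusted p = 0.0838).

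**Figure D2:**
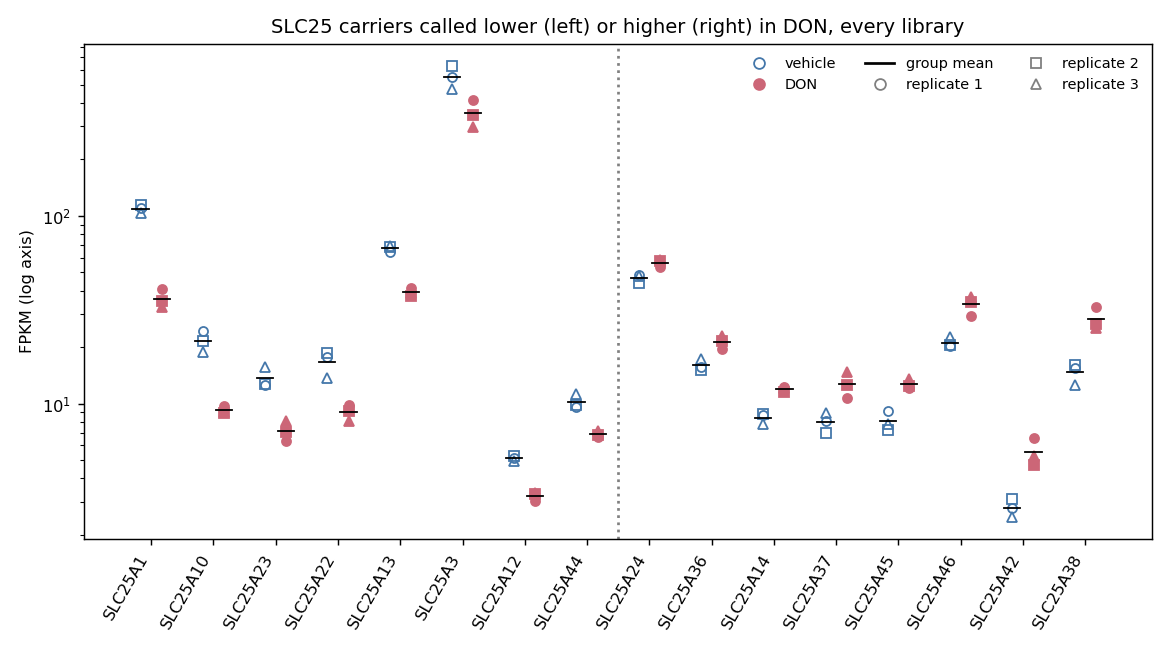
FPKM of 16 called carriers in every library, on a log axis, with vehicle and DON libraries in different colours and horizontal marks at the group means. Carriers called lower are on the left and those called higher on the right. The vehicle and DON points stand apart for each of these 16 carriers.

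Nucleotide carriers were mixed, with 2 of 8 tested higher, 1 lower and 5 not passing. SLC25A5, the ADP/ATP carrier of dividing cells, was the most abundant member of the family at 697, 718 and 720.5 FPKM with vehicle and 665, 726 and 708 FPKM with DON. The groups overlapped, and the 95% interval of its log2 change ran from -0.22 to 0.16. SLC25A6, which does the same exchange, was at 190 ± 7.11 and 173 ± 13.2 FPKM (limma adjusted p = 0.261), and the muscle and heart form SLC25A4 at 3.80 ± 0.721 and 3.58 ± 0.379 FPKM. SLC25A31, the germ cell form, was at the floor in all 6 libraries. Reads of SLC25A5 and SLC25A6 can be shared with their pseudogenes (9 and 6 symbols in the gene name table), so their levels are uncertain.

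The ATP-Mg/phosphate carriers, which set the size of the mitochondrial adenine nucleotide pool under control of calcium, moved apart. SLC25A23 was at 12.5, 12.8 and 15.6 FPKM with vehicle and 6.31, 7.06 and 8.09 FPKM with DON. It fell 1.91-fold with no overlap (log2 fold change -0.84 ± 0.13 SE, limma adjusted p = 0.00250). SLC25A24, the major form here, rose 1.20-fold, from 46.9 ± 2.38 to 56.4 ± 2.41 FPKM, also with no overlap (limma adjusted p = 0.0398). This call was lost after GC correction, where the log2 change of 0.26 became 0.13 (limma adjusted p = 0.189), and without any one of vehicle 1, vehicle 2, vehicle 3, DON 2 or DON 3, where the limma adjusted p was 0.0665, 0.131, 0.0651, 0.146 and 0.126. SLC25A25 was at 11.7 ± 1.71 and 12.2 ± 1.30 FPKM, and its antisense gene SLC25A25-AS1 at 1.59 ± 0.472 and 1.85 ± 0.459 FPKM (limma adjusted p = 0.747 and 0.569). Whether counting used strand is not given in the sources used here, so reads of the 2 genes may not be separated.

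The pyrimidine nucleotide carriers bring in the building blocks of mitochondrial DNA and RNA. SLC25A36 rose 1.34-fold, from 16.0 ± 1.18 to 21.4 ± 1.67 FPKM, with no overlap (limma adjusted p = 0.0174). The limma adjusted p was 0.0522 without vehicle 1, 0.0647 without vehicle 2, 0.0727 without DON 2 and 0.0671 without DON 3. Its relative SLC25A33 was at 7.61, 6.04 and 9.55 FPKM with vehicle and 7.36, 5.29 and 5.03 FPKM with DON, overlapping, and did not pass (limma adjusted p = 0.194).

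Among the cofactor carriers described here, SLC25A42 rose. It brings coenzyme A into the matrix in exchange for adenine nucleotides and was at 2.77, 3.08 and 2.498 FPKM with vehicle and 6.56, 4.69 and 5.22 FPKM with DON. The groups were well apart, and the mean rose 1.97-fold, from 2.78 ± 0.292 to 5.49 ± 0.967 FPKM (limma adjusted p = 0.00495, log2 fold change 0.77 ± 0.14 SE). SLC25A16, linked to coenzyme A as well, was at 7.51 ± 0.696 and 7.69 ± 1.13 FPKM.

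The other cofactor carriers described did not pass. SLC25A32, which carries folate and FAD and was the most abundant of the class, was at 22.3, 24.6 and 23.7 FPKM with vehicle and 25.6, 24.5 and 24.6 FPKM with DON. Its groups overlapped, and the 95% interval of the log2 change was -0.11 to 0.26. The NAD carrier SLC25A51 was at 0.586, 1.51 and 3.23 FPKM with vehicle and 2.59, 3.68 and 4.69 FPKM with DON (log2 fold change 0.83 ± 0.35 SE, limma adjusted p = 0.104). The vehicle libraries were spread widely. Leaving out 1 library gave log2 changes from 0.49 without vehicle 1 to 1.20 without vehicle 3, and limma adjusted p from 0.0166 (without vehicle 3) to 0.251. Reads of SLC25A51 can be shared with its near-identical copies, and SLC25A52, a retrocopy of it, was at the floor throughout. SLC25A17, a carrier of the peroxisome, was the only tested member without a call whose groups did not overlap, at 10.5, 10.4 and 11.3 FPKM with vehicle and 13.03, 11.8 and 11.4 FPKM with DON (limma adjusted p = 0.205). SLC25A26, the S-adenosylmethionine carrier, was at 5.49 ± 0.934 and 5.88 ± 0.745 FPKM.

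Of the phosphate and iron carriers, SLC25A3 fell, SLC25A37 rose and SLC25A28 did not pass. SLC25A3 imports phosphate for ATP synthesis and also copper. It stood at 550.3, 626 and 472 FPKM with vehicle and 415, 346 and 298 FPKM with DON, with all DON libraries lower. The mean fell 1.56-fold, from 549.5 ± 77.0 to 353 ± 58.7 FPKM (limma adjusted p = 0.0167, log2 fold change -0.64 ± 0.15 SE). Its limma adjusted p was 0.0546 without vehicle 1, 0.0584 without vehicle 2 and 0.0609 without DON 2, and 3 pseudogene symbols of it may share its reads. The iron importer SLC25A37 (mitoferrin-1), known from red blood cell precursors, was at 8.08, 6.96 and 8.93 FPKM with vehicle and 10.6, 12.5 and 14.8 FPKM with DON. It rose 1.58-fold with no overlap (log2 fold change 0.60 ± 0.14 SE, limma adjusted p = 0.0155), and its limma adjusted p was 0.0546 without vehicle 2 and 0.0575 without DON 2. The broadly expressed form SLC25A28 (mitoferrin-2) was at 9.34, 9.29 and 12.3 FPKM with vehicle and 12.3, 13.4 and 15.6 FPKM with DON. Vehicle 3 and DON 1 met, and it did not pass (log2 fold change 0.39 ± 0.14 SE, limma adjusted p = 0.0638). Leaving out 1 library gave limma adjusted p from 0.0204 (without vehicle 3) to 0.186. With a term for the split the log2 change was 0.29 (limma adjusted p = 0.0275) and after GC correction 0.52 (limma adjusted p = 0.0437).

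The glutathione and carnitine carriers were not called by limma, and none of the 3 reached an unadjusted p of 0.05. SLC25A39, which imports glutathione, was the most abundant at 81.0, 88.1 and 66.9 FPKM with vehicle and 78.9, 58.3 and 54.2 FPKM with DON. DON 1 lay inside the vehicle range (limma adjusted p = 0.183), and leaving out 1 library gave log2 changes from -0.47 without DON 1 to -0.20 without DON 3, with limma adjusted p from 0.0323 (without DON 1) to 0.428. Its paralog SLC25A40 was at 21.0, 20.9 and 25.3 FPKM with vehicle and 15.4, 20.6 and 21.3 FPKM with DON (limma adjusted p = 0.246), and a term for the split gave 0.00496 and GC correction 0.00844. Leaving out 1 library gave its log2 change as -0.31 to -0.089, the latter without DON 1, with limma adjusted p from 0.194 to 0.556. The carnitine-acylcarnitine carrier SLC25A20, which lets fatty acids into the matrix for oxidation, was at 10.999 ± 1.75 and 10.1 ± 2.29 FPKM.

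Among the uncoupling-like members, SLC25A14 rose. It was at 8.71, 8.81 and 7.74 FPKM with vehicle and 12.3, 11.5 and 12.04 FPKM with DON, 1.42-fold higher with no overlap (log2 fold change 0.46 ± 0.09 SE, limma adjusted p = 0.00707). Its relative SLC25A30 was at 2.02 ± 0.425 and 1.76 ± 0.228 FPKM and did not pass. SLC25A27, mainly a brain form, reached at most 0.540 FPKM and was not tested. UCP2 belongs to the same protein family under another symbol and moves small dicarboxylates and aspartate out of mitochondria. It was at 7.34, 6.79 and 6.32 FPKM with vehicle and 0.473, 0.699 and 0.675 FPKM with DON. UCP2 passed the filter through its vehicle libraries alone, since all 3 DON values were below 1 FPKM. The ratio of means was 11.1-fold lower. On the fitted scale, which understates changes of low genes, the log2 fold change was -2.28 ± 0.11 SE (limma adjusted p = 4.41e-05). Both were larger falls than those of any SLC25A gene called, a rank given as description only.

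In the group with no substrate assigned, 2 of 3 tested rose. SLC25A46 sits in the outer membrane, where it acts in the fusion and shape of mitochondria, and stood at 20.3, 20.4 and 22.5 FPKM with vehicle and 29.4, 34.9 and 36.9 FPKM with DON. The groups were far apart, and the mean rose 1.601-fold (log2 fold change 0.65 ± 0.11 SE, limma adjusted p = 0.00382). SLC25A45 was at 9.07, 7.23 and 7.81 FPKM with vehicle and 12.2, 12.4 and 13.5 FPKM with DON, 1.58-fold higher with no overlap (log2 fold change 0.61 ± 0.11 SE, limma adjusted p = 0.00474). SLC25A43 was at 19.0 ± 4.02 and 19.8 ± 4.84 FPKM.

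The remaining 17 members were too low to be tested. Of these, 7 were at the floor of 0.01 FPKM in all 6 libraries, among them SLC25A18, the second glutamate carrier, SLC25A21, the oxoadipate carrier, and SLC25A31. The other 10 were above it in at least 1 library. SLC25A35 was at 0.999, 0.806 and 0.467 FPKM with vehicle and 0.151, 0.0781 and 0.168 FPKM with DON, with all DON libraries lower, and in the fit without a filter its limma adjusted p was 0.0194. SLC25A41, the ATP-Mg carrier that lacks calcium control, was at 0.654, 0.980 and 0.233 FPKM with vehicle and 0.253, 0.0374 and 0.401 FPKM with DON, overlapping. SLC25A5-AS1 ranged from the floor to 1.20 FPKM. SLC25A2, SLC25A34, SLC25A47, SLC25A48, SLC25A53 and SLC25A30-AS1 did not exceed 0.201 FPKM.

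Because FPKM is per length, tested carriers of the same substrate could be summed, which leaves out the untested SLC25A31, SLC25A41 and SLC25A27. The aspartate-glutamate pair summed to 69.7, 73.7 and 74.0 FPKM with vehicle and 44.6, 40.9 and 42.2 FPKM with DON, 0.587 of the vehicle mean. The ADP/ATP carriers SLC25A4, SLC25A5 and SLC25A6 summed to 905 ± 5.19 and 876 ± 20.5 FPKM, a ratio of 0.968. For the ATP-Mg carriers the sums were 72.2 ± 1.90 and 75.8 ± 1.91 FPKM, a ratio of 1.05. Inside this sum, whose group means differed by 3.53 FPKM, SLC25A23 was lower and SLC25A24 higher with DON. The call of SLC25A24 was lost under 8 of the 15 alternatives. The iron pair went from 18.3 ± 2.62 to 26.4 ± 3.73 FPKM, the coenzyme A pair from 10.3 ± 0.414 to 13.2 ± 1.81 FPKM, the pyrimidine pair from 23.7 ± 2.92 to 27.3 ± 0.585 FPKM and the uncoupling-like set from 10.4 ± 0.792 to 13.7 ± 0.177 FPKM. Only the glutathione pair overlapped between groups, at 101 ± 8.44 and 82.9 ± 10.0 FPKM. For each of the 7 sets without overlap the two-sided exact permutation p was 0.1, the smallest that 3 against 3 can give. After adjustment over the 8 sets this permutation p was 0.114. Some gaps were narrow. The ATP-Mg sums came closest at 73.4 FPKM in vehicle 1 and 73.6 in DON 1. With SLC25A41 added (0.654 FPKM in vehicle 1, 0.253 in DON 1) these groups would overlap. The pyrimidine sums came closest at 26.87 in vehicle 3 and 26.93 in DON 2. Those of ADP/ATP did so at 899 in vehicle 1 and 897 in DON 2. Groups did not overlap for 51.5% of all tested genes taken singly.

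**Figure D3:**
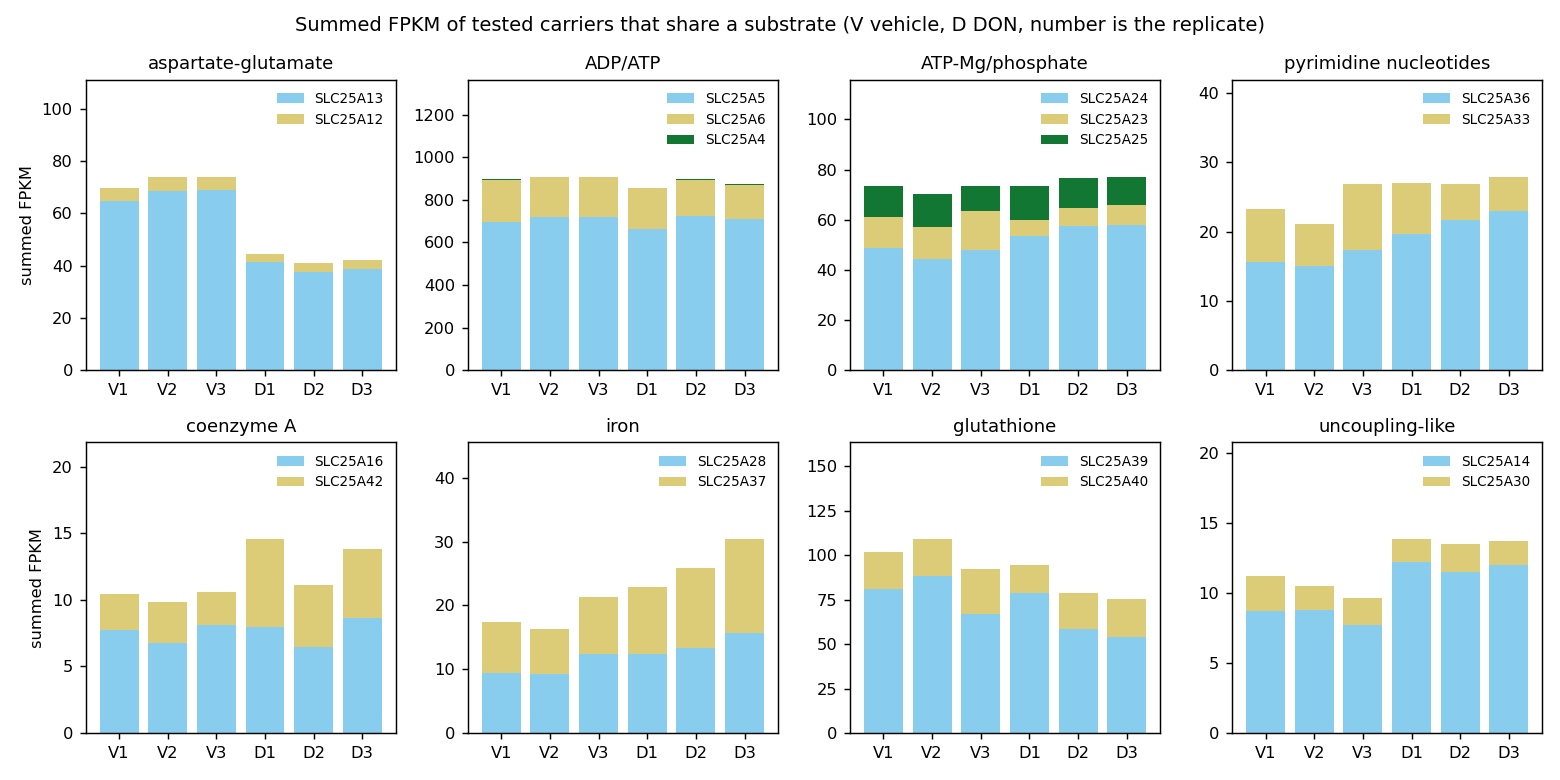
Summed FPKM of tested carriers that share a substrate in each vehicle (V1 to V3) and DON (D1 to D3) library, stacked by carrier from 0. The aspartate-glutamate stack averages 72.5 FPKM with vehicle and 42.6 FPKM with DON, while SLC25A24 takes a larger part of the ATP-Mg stack in every DON library.

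Within sets, the mean shares of paralogs differed between the groups to unequal degrees. SLC25A24 made up 64.8% ± 1.64 of the ATP-Mg sum with vehicle and 74.4% ± 1.35 with DON, and SLC25A23 18.9% ± 2.22 and 9.43% ± 0.967. SLC25A42 held 27.1% ± 3.94 of the coenzyme A pair with vehicle and 41.6% ± 3.73 with DON. SLC25A13 held 92.9% and 92.4% of the aspartate-glutamate sum, and SLC25A5 78.6% and 79.8% of the ADP/ATP sum. In 12 pairs of carriers with a shared substrate, the per-library difference of log2(FPKM + 1) was compared between groups. It did not overlap in 6 pairs, with a shift of -1.10 for SLC25A23 minus SLC25A24, -0.90 for SLC25A23 minus SLC25A25, -0.75 for SLC25A16 minus SLC25A42, -0.73 for SLC25A33 minus SLC25A36, 0.58 for SLC25A14 minus SLC25A30 and 0.23 for SLC25A12 minus SLC25A13. Each had a two-sided exact permutation p of 0.1, or 0.2 after adjustment over the 12 pairs, so none passes a threshold of 0.05 in this design. Among all tested genes taken singly, groups did not overlap for 51.5%, so 6 of 12 pairs is near that share.

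Genes that act beside the carriers, or belong to the family under other symbols, were read from the same fit. The lists hold 69 genes for enzymes, import proteins, channels and other transporters, of which 65 were tested, 11 rose and 23 fell. Over all tested genes 18.3% were called higher and 20.6% lower. These lists were chosen with earlier results of the data known, so their counts are a description only. All 4 enzymes of the malate-aspartate shuttle fell. GOT1, the cytosolic aspartate aminotransferase, went from 43.0 ± 3.87 to 26.0 ± 2.54 FPKM (limma adjusted p = 0.00293), and the malate dehydrogenases MDH1 and MDH2 fell 1.497-fold and 1.34-fold (limma adjusted p = 0.0182 and 0.0150). The calls of MDH1 and MDH2 were lost without any one of vehicle 1, vehicle 2, DON 2 or DON 3, with limma adjusted p of 0.0510 to 0.0651. Of the 6 enzymes upstream and downstream of citrate export, 5 fell, with a median log2 change of -1.33. ACLY, which splits exported citrate, went from 61.8 ± 5.03 to 20.6 ± 0.817 FPKM, 3.002-fold lower, and ACACA, which makes malonyl-CoA, from 11.1 ± 1.03 to 2.88 ± 0.0967 FPKM (limma adjusted p = 7.36e-05 and 8.52e-05). The log2 change of FASN, the fatty acid synthase, was -2.81 (limma adjusted p = 0.000123), so SLC25A1 lay among these enzymes in size.

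**Figure D4:**
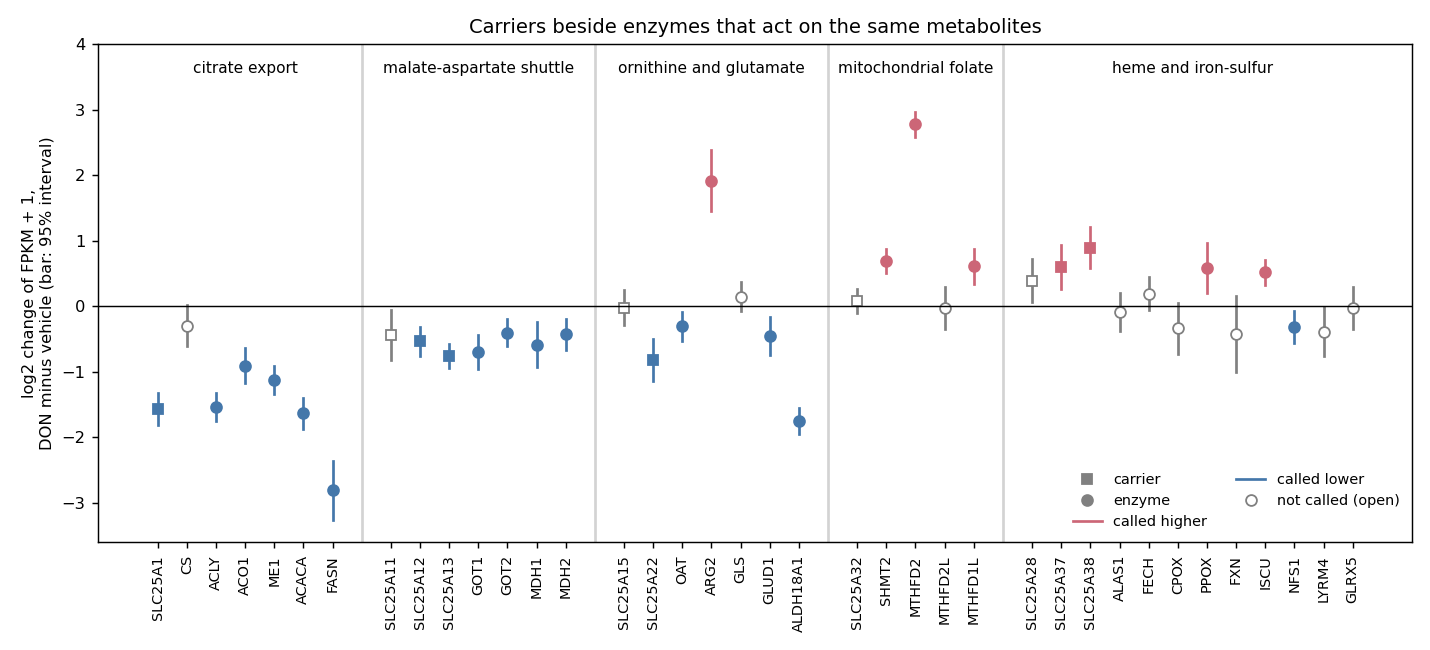
Log2 change of FPKM + 1 (DON minus vehicle) with its 95% interval for carriers beside enzymes that act in the same pathways. Filled points were called by limma and open points were not. SLC25A1 (-1.57) stands near ACLY (-1.54) and ACACA (-1.63), whereas SLC25A32 (0.08) was not called beside the folate enzyme MTHFD2 (2.77).

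Mitochondrial folate enzymes rose in 3 of 4 cases, while the folate carrier SLC25A32 did not pass. SHMT2, which makes glycine from serine in the matrix, went from 65.4 ± 1.54 to 107 ± 5.90 FPKM, and MTHFD1L from 20.6 ± 1.90 to 31.9 ± 3.25 FPKM (limma adjusted p = 0.000790 and 0.00563). MTHFD2 had a log2 change of 2.77 (limma adjusted p = 1.61e-05). The glycine and iron that SLC25A38 and SLC25A37 bring in enter heme and iron-sulfur synthesis. Among 9 genes of these pathways, not all of which use either substrate, 2 rose, 1 fell and 6 did not pass. ALAS1 and FECH were among the latter (limma adjusted p = 0.592 and 0.179). The iron-sulfur scaffold ISCU rose from 62.2 ± 2.49 to 89.6 ± 4.43 FPKM (limma adjusted p = 0.00280). The heme enzyme PPOX rose 1.58-fold (limma adjusted p = 0.0256), and its limma adjusted p was 0.0586, 0.0574 and 0.0626 without vehicle 1, vehicle 2 and vehicle 3. The cysteine desulfurase NFS1 fell 1.26-fold (limma adjusted p = 0.0492), and this call was lost without any one of vehicle 2, vehicle 3, DON 1, DON 2 or DON 3, with limma adjusted p of 0.0835 to 0.136.

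In the list of ornithine and glutamate enzymes, ARG2, the mitochondrial arginase, rose from 4.42 ± 1.20 to 19.4 ± 3.74 FPKM (limma adjusted p = 0.000548). ALDH18A1, which turns glutamate toward proline and ornithine, fell from 123 ± 3.21 to 36.1 ± 2.59 FPKM (limma adjusted p = 3.87e-05). GLUD1, glutamate dehydrogenase, fell 1.37-fold (limma adjusted p = 0.0260), and its limma adjusted p was 0.0730 without vehicle 2, 0.0649 without vehicle 3 and 0.0695 without DON 2. In the carnitine shuttle CPT1A, which loads fatty acids onto carnitine, rose 1.54-fold and CRAT, which acts on short acyl groups, fell 1.35-fold (limma adjusted p = 0.00127 and 0.0153). For CRAT the limma adjusted p was 0.204 after GC correction, 0.0544 without DON 2 and 0.0557 without DON 3.

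The machinery that imports carriers was mixed, with 2 of 11 tested genes higher and 3 lower. TOMM40, the pore of the outer membrane, went from 34.2 ± 0.664 to 17.7 ± 2.23 FPKM, 1.93-fold lower with no overlap (limma adjusted p = 0.000803). The small chaperone TIMM9 rose 1.70-fold and its relative TIMM13 fell 1.62-fold (limma adjusted p = 0.0337 and 0.0294). Both of these calls were lost without any one of vehicle 1, vehicle 2, DON 2 or DON 3, with limma adjusted p of 0.0843 to 0.113. Among 15 other inner membrane transporters 1 rose and 4 fell. ABCB8, an ATP-driven transporter, fell 2.51-fold from 11.3 ± 0.768 to 4.52 ± 0.419 FPKM (limma adjusted p = 0.000281). SFXN2, of the sideroflexin family, and LETM1, a cation exchanger, fell 1.72-fold and 1.46-fold (limma adjusted p = 0.0155 and 0.0293). The limma adjusted p of SFXN2 was 0.0551 without vehicle 2 and 0.0661 without DON 2, and that of LETM1 was 0.0870 to 0.109 without vehicle 1, vehicle 2, DON 2 or DON 3. In the outer membrane TSPO fell from 366 ± 35.5 to 203 ± 41.4 FPKM (limma adjusted p = 0.00531). The channel VDAC2 rose 1.33-fold (limma adjusted p = 0.0478), and its limma adjusted p was 0.101 to 0.162 without vehicle 1, vehicle 2, DON 2 or DON 3. The number of partner genes that fell was 12 without DON 2 and 15 without vehicle 2 or without DON 3.

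Other mitochondrial and carrier genes were read from the same fit. Of 46 tested complex I genes 3 rose and 9 fell, and of 80 tested mitochondrial ribosomal protein genes 12 rose and 9 fell, so 26.1% and 26.2% were called. Of 118 tested solute carriers outside the family, 31 rose and 34 fell (55.1% called). Of 24 tested nucleotide sugar carriers (SLC35), some of which may also be counted there, 5 rose and 5 fell (41.7% called). Over all tested genes 38.9% were called. The share in the SLC25 members, 45.9%, lay between the lowest and highest of these, and the differences were not tested.

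Differences were also read on each side of the library split, where DON 1 was set against vehicle 1 and 2, and DON 2 and 3 against vehicle 3. With groups that do not overlap the direction on both sides is fixed, so only sizes are described. SLC25A38 differed by 1.00 and 0.99 on the log2(FPKM + 1) scale, and SLC25A1 by -1.43 and -1.58. Among the uncalled members, SLC25A33 differed by 0.10 on one side and -0.78 on the other, and SLC25A4 by -0.29 and 0.19. The transcript GC of members that rose had a median of 48.4% (32.1% to 60.2%) and of those that fell 52.1% (43.9% to 65.6%), against 48.3% over all tested genes. After GC correction 16 of the 17 called members stayed called by limma, all but SLC25A24, while sizes changed. The log2 change of SLC25A1 was -1.29 in place of -1.57, that of SLC25A10 -0.86 in place of -1.13 and that of SLC25A22 -0.57 in place of -0.81. For SLC25A46 it was 0.44 in place of 0.65 and for SLC25A36 0.25 in place of 0.40. It grew for SLC25A42, to 0.95 from 0.77, and for SLC25A45, to 0.76 from 0.61.

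**Figure D5:**
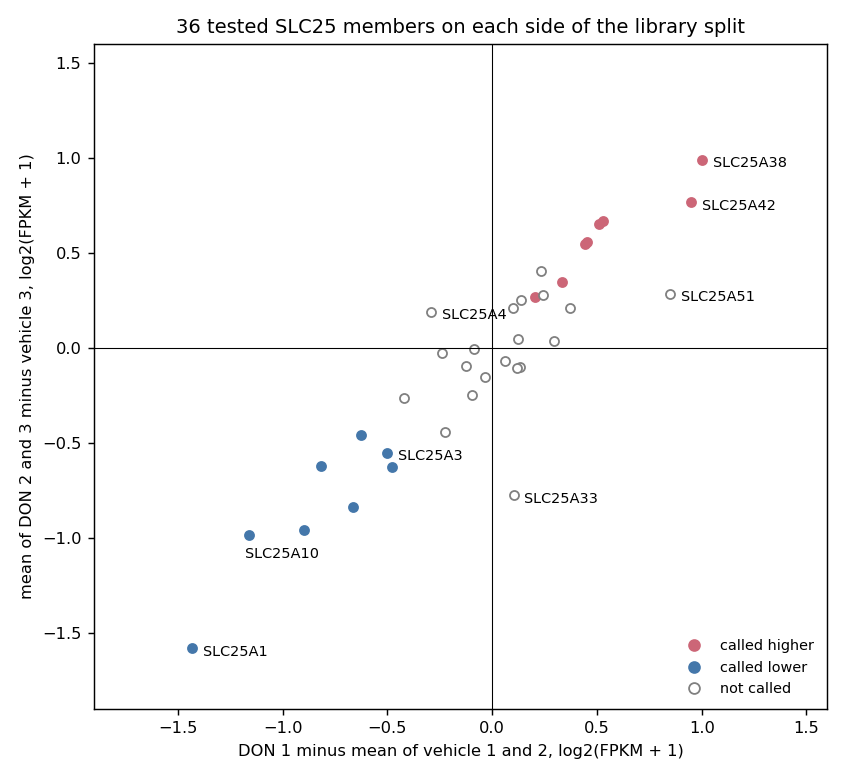
Difference between DON and vehicle in log2(FPKM + 1) within each side of the library split, for 36 tested members, with DON 1 against vehicle 1 and 2 on the horizontal axis and DON 2 and 3 against vehicle 3 on the vertical axis. The 16 called members shown have groups that do not overlap, which fixes their direction on both axes, and the uncalled SLC25A33 lies at 0.10 and -0.78.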

How the data were processed

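Poly(A) RNA was selected, directional libraries were made and single reads of 75 bases were sequenced, per the labels' protocols. STAR was the aligner and hg19 the genome, per the submitters' processing notes, with no version given. The authors deposited FPKM values, 1 row per symbol and 1 column per library. The sources used here do not give the program, annotation or use of strand behind them. Columns named control were taken as vehicle by their number. Of 26228 rows, 41 had a failure mark in 1 or more libraries and were not tested.

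Values were taken as log2(FPKM + 1). Genes at 1 FPKM or more in at least 3 of the 6 libraries (11471) were compared with limma 3.58.1 in R 4.3.3, with an intensity trend and no block, two-sided, Benjamini-Hochberg adjusted over all of them. Fold values are ratios of mean FPKM, and log2 changes, which understate those of low genes, come from the fit. Set sums and paralog pairs were compared by exact permutation with scipy 1.17.1. The fit was tested on simulated data with independent noise and no library split, where 147 of 200 genes changed 2-fold were recovered. The 200 were drawn from genes of this comparison without the lowest ones, and far more genes, 4459, were called in the data. The share recovered therefore need not hold for the comparison itself. Absolute depth is unknown, so no counting interval is given. Values in every library are printed for called carriers with a log2 change of 0.5 or more and for the most abundant of each class, and for some others chosen after their values were seen. In each partner list up to 3 called genes are named by size of change. The values of 1 member are not reported here, though it stays in the counts. Members and lists were chosen with earlier results of these data known. GC content is that of GENCODE 29 transcripts. The alternatives were a replicate block, fitting without a trend, quantile normalization, scaling by the median of ratios, testing all genes or those at 5 FPKM, a smaller pseudocount of 0.1, a term for the library split, leaving out each library and, chosen after seeing the data, a GC correction.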

Additional observations from a re-analysis of the deposited data

How the results depend on the processing

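No called SLC25 member changed direction under any alternative run. Of the 17, 5 lost the call under at least 1 of them, among them SLC25A3, SLC25A24, SLC25A36 and SLC25A37, and SLC25A24 also with quantile normalization and without a trend (adjusted p = 0.0692 and 0.0527 by limma). Leaving out 1 library gave 2697 to 4656 called genes against 4459, 5 to 9 members higher, 7 to 11 lower and 12 to 23 partner genes lower. By class, leaving out 1 library gave 1 to 2 cofactor carriers higher and 0 to 1 lower, 0 to 1 glutathione and carnitine carriers lower, 0 to 2 nucleotide carriers higher, and 0 to 2 phosphate and metal carriers higher and 0 to 1 lower. Amino acid carriers called higher were 2 with the split term and with GC correction, and in both fits glutathione and carnitine carriers lower were 1 and phosphate and metal carriers higher 2. Nucleotide carriers higher were 1 with quantile normalization, without a trend and with GC correction. Cofactor carriers higher were 0 with the filter at 5 FPKM, which leaves SLC25A42 untested, and cofactor carriers lower were 0 with no filter and with quantile normalization. Members of unassigned substrate called lower were 1 with no filter, which lets SLC25A35 in. The cause of the other shifts was not tested. Of the 26 partner genes named as called, 11 lost the call under at least 1 alternative. No scaling moved the median log2 change of all genes by 0.1.

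Uncalled members changed sign: the log2 change of SLC25A15 was 0.057 with quantile normalization, SLC25A4 0.014 with quantile normalization, SLC25A16 -0.085, SLC25A32 -0.040 and SLC25A6 0.13 with GC correction, and SLC25A20 0.0055 and SLC25A43 -0.11 with the split term. Leaving out 1 library gave -0.068 to 0.062 for SLC25A15, -0.054 to 0.13 for SLC25A16, -0.054 to 0.14 for SLC25A25, -0.035 to 0.16 for SLC25A26, -0.15 to 0.056 for SLC25A4, -0.11 to 0.22 for SLC25A43 and -0.052 to 0.010 for SLC25A5. The pair shifts ranged from -0.13 to 0.097 for SLC25A4 minus SLC25A5, -0.0013 to 0.21 for SLC25A4 minus SLC25A6 and -0.38 to 0.11 for SLC25A39 minus SLC25A40, and the share of SLC25A39 from -4.73 to 1.20 percentage points.

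Same-numbered libraries did not deviate together throughout: correlations of their deviations from group means were 0.254, -0.184 and 0.502, and vehicle 2 correlated best with DON 1 (0.389), so the numbers were not taken as pairs. With the replicate block 5414 genes were called, 10 members were higher and 10 lower, 2 cofactor and 2 phosphate and metal carriers were higher, and SLC25A11, SLC25A28 and SLC25A51 were called (limma adjusted p = 0.0196, 0.0141 and 0.00958).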
